A study of Mus musculus with 9 samples.

Results

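Translation initiation and elongation factors were followed in neutrophils, the short-lived granulocytes of innate immunity, sorted from the lung, blood and bone marrow of wild-type C57BL/6 mice. The members are all genes of the deposited count table whose symbol starts with Eif and a digit from 1 to 6, or with Eef and 1 or 2, without the 4 eIF2 kinases Eif2ak1 to Eif2ak4. This rule gave 62 of 24532 genes. Each tissue had 3 biological replicates, so 9 polyA RNA libraries in all, and no group carried a treatment or an engineered allele. Neither the ages and sexes of the mice nor the sorting markers are stated in the labels. The comparisons address how the expression of translation factors in neutrophils varies with the tissue they were taken from.

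Initiation begins when eIF2 brings the initiator tRNA to the small ribosomal subunit, helped by eIF1, eIF1A, eIF3 and eIF5. The eIF4F complex, made of the cap-binding protein eIF4E, the scaffold eIF4G and the helicase eIF4A, loads this subunit onto the capped end of an mRNA, and 4E-BP proteins block eIF4E until the kinase mTOR phosphorylates them. The scanning subunit selects a start codon by its surrounding bases, eIF5B joins the large subunit, and eEF1A and eEF2 then drive elongation, with eEF2 inhibited by its kinase eEF2K. Neutrophils are known to carry little RNA per cell and to rely on stored granule proteins, and they still make cytokines and other proteins after they leave the marrow.

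The start codon windows below are those of the start-selecting factors Eif1, Eif1b and Eif5, of genes of the helicase, cap-binding, 4E-BP and scaffold families described further on, of Eef2k, and of Eef1a1 as the most abundant member. They show the bases that scanning subunits meet. Each window runs 5′ to 3′ in lower case, with 12 bases before the start codon and the start codon in capitals, as DNA of the mm10 build. The transcript is the most counted one of each gene in the deposited table, as annotated in GENCODE release 21 for mouse.
Eif1 (chr11:100320118-100320137, plus strand): gaatcgtatcgtATGtccgc
Eif1b (chr9:120492799-120492818, plus strand): cactagtgtcgcATGtccac
Eif5 (chr12:111539604-111539623, plus strand): taataagccaaaATGtctgt
Eif4a1 (chr11:69672294-69672313, minus strand): attctaaggatcATGtctgc
Eif4a2 (chr16:23107780-23107799, plus strand): ggttttcggatcATGtctgg
Eif4e3 (chr6:99666745-99666764, minus strand): ccggcggagaacATGgcgct
Eif4ebp2 (chr10:61452539-61452558, minus strand): cgcgtcggagccATGtccgc
Eef2k (chr7:120858408-120858427, plus strand): cgcccccgcaacATGgcaga
Eef1a1 (chr9:78480647-78480666, minus strand): ttcaaagcaaaaATGggaaa
Eif4g2 (chr7:111081540-111081559, minus strand): caagccgccaaaGTGgagag
Eif4g2 starts at GTG in this annotation, and the other 61 members start at ATG. A context was called strong with A or G at the third base before the codon and G right after it, and weak with neither. Of the 61 ATG members, 30 (49.2%) had a strong context, 26 (42.6%) had 1 of the 2 bases and 5 (8.20%) had a weak one. Among the 12528 ATG starts of all tested genes these shares were 45.6%, 48.1% and 6.29%. The weak starts were those of Eif1, Eif1b, Eif3b, Eef1akmt1 and Eif4e, and both eIF1 genes, whose protein makes the ribosome reject poor contexts, are thus among them. The Eif4e start, at chr3:138550285-138550304, is that of a single transcript of the 2 listed for this gene. It lies far downstream of the gene's first base at chr3:138526191, and the start of the other transcript was not examined.

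Some messages of translation factors are known to start with a terminal oligopyrimidine tract, a C followed by further pyrimidines, which the protein LARP1 binds under mTOR control. The search was for a run that starts with C and holds only C and T, at least 8 bases long, on the coding strand, within 15 bases before to 25 bases after a first base annotated by RefSeq. Such a run stood in 12 of the 47 members with a RefSeq window (25.5%) and in 1649 of 10669 tested genes (15.5%). Because the search covers bases before the first base and up to 25 bases after it, a run found need not start the message. The examples below are the members with the longest runs that lie whole in the printed window, and the most abundant member. They are DNA of GRCm38 (mm10), with 5 bases before the annotated first base and the run in capitals. The runs of Eif3f, Eif2s3x and Eef1a1 begin before that first base, so only part of each lies in the annotated message. Those of Eif2s3y and Eif3k begin after it, so they do not start the annotated message.
Eif3f (chr7:108934410-108934439, plus strand): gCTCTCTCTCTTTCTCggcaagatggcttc
Eif2s3x (chrX:94212627-94212656, minus strand): ttttCCTTTTCTCTCCgagcaagatggctg
Eif2s3y (chrY:1010590-1010619, plus strand): cagccaCTTCCTTCTTTCgtgagcaagatg
Eif3k (chr7:28981864-28981893, minus strand): gcgctggtgctgaaagcgCCTTTCCCTTTg
Eef1a1 (chr9:78481700-78481729, minus strand): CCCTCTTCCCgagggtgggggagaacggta
Of the 12 members with a run, 2 passed the test in lung against blood, Eif2b2 and Eif4enif1, both lower in lung. Against bone marrow, lung had 1 of the 12 higher, Eif4e, whose run lies wholly before its annotated first base. Lung had 3 of the 12 lower than bone marrow, Eif2b2, Eif2b5 and Eif4enif1. Blood against bone marrow had Eif4e higher and Eif3k lower. That is 2, 4 and 2 of 12, where 28.9%, 38.2% and 21.4% of all tested genes passed edgeR's test at an adjusted p under 0.05. The median log2 fold change of the 12 was 0.20 in lung against blood, -0.06 in lung against bone marrow and -0.08 in blood against bone marrow.

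Libraries held 42045548 to 56796219 deposited reads, and 3 reads, the floor used for a count of 0, stood for 0.0521 to 0.0767 CPM, counts scaled by each library's TMM-adjusted size, with counting error only. The members took 0.894%, 0.846% and 0.669% of reads in lung replicates 1, 2 and 3, 0.747%, 0.763% and 0.587% in blood, and 0.722%, 0.635% and 0.578% in bone marrow. Replicate 3 had the lowest share in each tissue. The 10 neutrophil markers, all with reads in every library, summed to 21069 to 38919 CPM in lung, 30271 to 43747 CPM in blood and 89260 to 130289 CPM in bone marrow. Ly6g, the neutrophil surface marker, had 15.4 to 27.0 CPM in lung, 21.2 to 24.8 CPM in blood and 418 to 678 CPM in bone marrow. Csf3r of the same list ran otherwise, with 5210 to 10841 CPM in lung, 11325 to 15905 CPM in blood and 4394 to 5388 CPM in bone marrow. Cxcr2 had 299 to 661 CPM in lung, 1345 to 2397 CPM in blood and 1103 to 1687 CPM in bone marrow. The rest of the 10 markers were highest in bone marrow. Markers of other cells were also present and differed between tissues and replicates. The 6 fibroblast markers summed to 1499, 1281 and 89.9 CPM in lung, 6.999 to 42.2 CPM in blood and 41.1, 43.5 and 155 CPM in bone marrow. The 7 B cell markers summed to 420, 363 and 39.4 CPM in lung, 353, 341 and 57.3 CPM in blood and 108, 60.8 and 26.1 CPM in bone marrow. The 8 macrophage markers summed to 1038, 1226 and 293 CPM in lung, 208 to 240 CPM in blood and 864 to 1160 CPM in bone marrow. Chil3 alone gave 787, 926 and 71.3 CPM of these sums in lung, 89.4, 94.5 and 38.05 CPM in blood and 934, 799.7 and 1082 CPM in bone marrow, and C1qa, a macrophage complement gene, had 12.6 to 28.02 CPM in lung, 0.0869 to 0.392 CPM in blood and 0.334 to 1.33 CPM in bone marrow. The 6 dendritic cell markers summed to 472, 351 and 93.8 CPM in lung, 35.6 to 235 CPM in blood and 11.6 to 26.8 CPM in bone marrow. The 8 lung epithelium markers summed to 899, 279.7 and 76.2 CPM in lung, 21.05 to 37.1 CPM in blood and 13.8, 18.95 and 90.5 CPM in bone marrow. Ager alone gave 20.4 to 36.7 CPM of these sums in blood, 10.9 to 18.9 CPM in lung and 10.3 to 21.3 CPM in bone marrow. Sftpc had 505, 122 and 25.2 CPM in lung, at most 0.567 CPM in blood and 0.0477, 0 and 36.3 CPM in bone marrow. Bone marrow replicate 3 thus had the highest fibroblast and lung epithelium sums of its tissue. The 7 erythroid markers summed to 32.6 to 165 CPM in lung, 327 to 689 CPM in blood and 704 to 1085 CPM in bone marrow. The 7 progenitor and proliferation markers summed to 33.0 to 96.9 CPM in lung, 4.19 to 6.88 CPM in blood and 49.3 to 337 CPM in bone marrow. The part of these other cells in the results was not tested. Leaving out the 3 libraries numbered 3 cannot test it. In lung, that keeps the libraries with the higher fibroblast, B cell, macrophage, dendritic cell and lung epithelium sums. In such bulk samples, fewer cells of a type and less RNA per cell cannot be told apart.

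Across the 61 tested members, 6 were higher and 5 lower in lung than in blood by edgeR's quasi-likelihood test at an adjusted p under 0.05. That is 18.0% of members, where 28.9% of all 13510 tested genes passed, 13.2% higher and 15.7% lower. In lung against bone marrow 10 members were higher and 10 lower, 32.8% of members, where 38.2% of all genes passed, 15.6% higher and 22.6% lower. In blood against bone marrow 4 were higher and 4 lower, 13.1% of members, where 21.4% of all genes passed, 8.34% higher and 13.1% lower. The members' median absolute log2 fold change was 0.38 in lung against blood, 0.55 in lung against bone marrow and 0.24 in blood against bone marrow, beside 0.60, 0.80 and 0.56 over all tested genes. Their median signed log2 fold change was 0.21, 0.10 and 0.00, beside 0.05, 0.06 and -0.05 over all genes. The libraries of the 2 tissues did not overlap for 40.98%, 44.3% and 36.1% of members, beside 41.6%, 49.0% and 45.4% of all tested genes. The remaining member, Eif4e1b, had 0 reads in every library.

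How many members passed depended on the scaling and on pairing. Upper-quartile scaling, which moved the median log2 fold change of all genes up by 0.16, 0.32 and 0.15, gave 14 members higher and 3 lower in lung against blood, 23 and 3 in lung against bone marrow, and 8 and 3 in blood against bone marrow. Of all tested genes it called 16.2% higher and 12.8% lower, 23.0% and 15.8%, and 12.5% and 11.3% in the same order of comparisons. DESeq2's size factors moved that median by 0.10, 0.13 and 0.04 and gave 6 higher and 1 lower, 12 and 3, and 3 and 2, beside 14.0% and 10.6%, 18.0% and 16.6%, and 7.7% and 10.2% of all tested genes. With the replicate number as a block, 10 were higher and 7 lower in lung against blood, 14 higher and 12 lower in lung against bone marrow, and 7 higher and 4 lower in blood against bone marrow, beside 15.3% and 19.8%, 18.2% and 26%, and 12.1% and 17.5% of all tested genes. Without blood replicate 3, lung against blood had 0 members higher and 1 lower in edgeR, with 6 higher and 6 lower at an unadjusted p under 0.05, and 6.54% of all tested genes higher and 6.61% lower. No named member that passed changed direction in any alternative run.

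**Figure D1:**
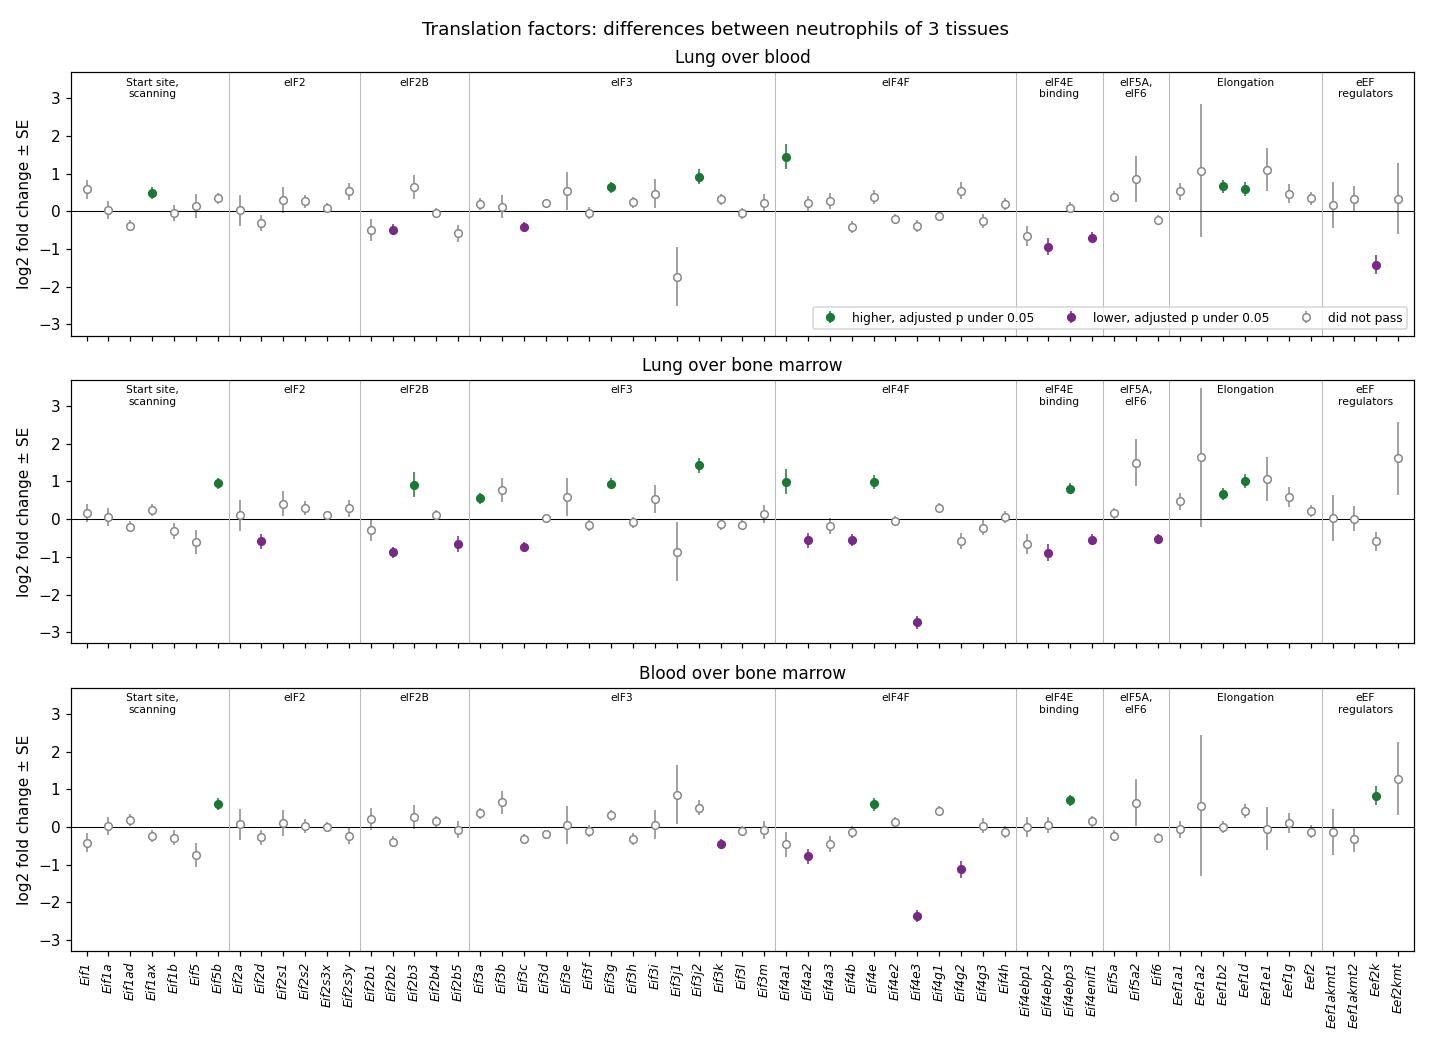
Log2 fold change ± SE (edgeR) of the 61 tested members, grouped by role, for lung over blood, lung over bone marrow and blood over bone marrow, with filled points for members past an adjusted p of 0.05. Eif4e3 lies lowest in both comparisons with bone marrow, at -2.74 and -2.36, and most other members lie within 1 log2 unit of 0.

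Levels of different genes are set side by side only per length, in FPKM. Eef1a1, the elongation factor that brings aminoacyl-tRNA to the ribosome, was the highest member by its mean over the 9 libraries, at 956 FPKM in lung, 714 FPKM in blood and 574 FPKM in bone marrow. Eif1, a gatekeeper of start codon choice, followed at 874 FPKM in lung, 646 FPKM in blood and 670 FPKM in bone marrow. Eef2, the translocase, had 312, 268 and 225 FPKM in lung, blood and bone marrow, and Eif5a, which helps ribosomes past stretches such as consecutive prolines, had 196, 161 and 147 FPKM. The tissue-enriched paralogs were at the other end, with Eef1a2, the eEF1A form of muscle and neurons, at 0.0988 FPKM in lung, 0.0446 FPKM in blood and 0.0189 FPKM in bone marrow. Eif5a2 reached 0.245 FPKM in lung, 0.146 FPKM in blood and 0.0715 FPKM in bone marrow. The subunits of 1 complex differed widely too: in eIF2, Eif2s1 had 2.81, 2.38 and 1.71 FPKM in lung, blood and bone marrow, and Eif2s3y, the Y-linked gamma subunit gene, had 55.6, 43.2 and 39.8 FPKM. Eif2s3y made up 84.4% to 88.7% of the summed Eif2s3x and Eif2s3y FPKM in lung, 81.2% to 85.9% in blood and 84.0% to 87.2% in bone marrow, and these ranges overlap.

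**Figure D2:**
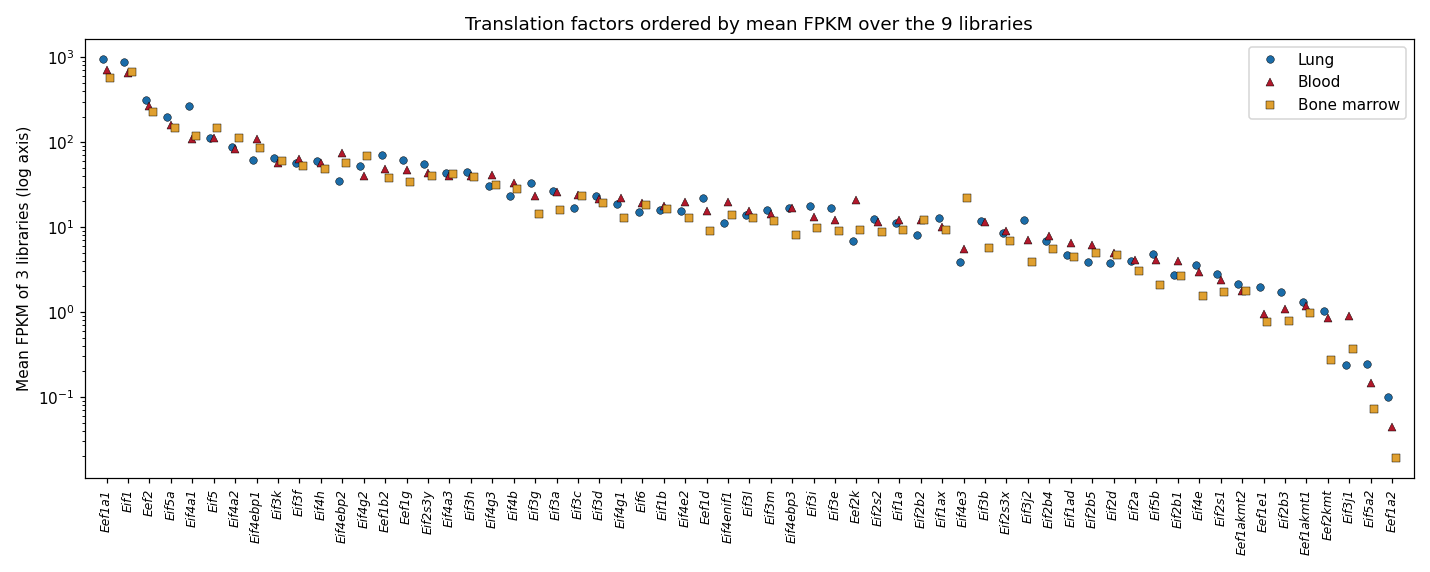
Mean FPKM of 3 libraries (log axis) of the 61 members with reads in lung, blood and bone marrow, ordered by the mean over the 9 libraries. Eef1a1 and Eif1 stand at the left with 574 to 956 FPKM, and Eif5a2 and Eef1a2 at the right stay below 0.3 FPKM.

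Of the cap-binding genes, Eif4e3 was lower and Eif4e higher in lung and in blood than in bone marrow. Eif4e3 (chr6:99625137-99666771), an eIF4E relative that binds the cap in an atypical way, had 8.15, 10.2 and 10.9 CPM in lung, 13.2, 12.3 and 12.6 CPM in blood and 54.1, 70.6 and 70.9 CPM in bone marrow. Every bone marrow library was above every lung and blood library, with no overlap. The log2 fold change was -2.74 ± 0.16 in lung against bone marrow (adjusted p = 1.5e-05) and -2.36 ± 0.16 in blood against bone marrow (adjusted p = 4.65e-05), and all 19 alternatives of each kept the call. Lung against blood did not pass, at -0.38 ± 0.16 (adjusted p = 0.0967), although no lung library reached a blood library. The gene shares 14.8% of its exonic bases with another annotated gene on the same strand, and its deposited reads stood at 2.11 times its RSEM counts in lung and blood, near the ratio of most members.

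Eif4e, the main cap-binding protein, had 20.8, 14.1 and 18.9 CPM in lung, 14.9, 12.9 and 13.6 CPM in blood and 9.77, 9.17 and 8.18 CPM in bone marrow. Bone marrow was lowest without overlap, and lung and blood overlapped. Eif4e was higher in lung than in bone marrow, with a log2 fold change of 0.99 ± 0.18 (adjusted p = 0.00258), a call kept in all 19 alternatives. It was also higher in blood than in bone marrow, by 0.61 ± 0.18 (adjusted p = 0.0384), but it passed in 10 of 19 alternatives there (adjusted p = 0.00706 to 0.138) and missed the threshold without any 1 blood library (0.0845 to 0.126) or any 1 bone marrow library (0.0782 to 0.138). Eif4e2, which binds caps weakly and acts in repression, gave -0.20 ± 0.13, -0.06 ± 0.13 and 0.14 ± 0.13 in lung against blood, lung against bone marrow and blood against bone marrow, and none of these passed. As a share of the summed FPKM of Eif4e, Eif4e2 and Eif4e3, which scaling between libraries cannot move, Eif4e3 took 15.1%, 18.7% and 16.4% in lung, 20.2%, 19.5% and 19.1% in blood and 57.4%, 62.7% and 60.5% in bone marrow. Eif4e took 19.4%, 12.96% and 14.3% in lung, 11.5%, 10.3% and 10.4% in blood and 5.204%, 4.08% and 3.51% in bone marrow. These within-library ratios were chosen after the values were seen and carry no test.

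The helicase subunit differed most between lung and blood. Eif4a1 (chr11:69666936-69672423), the main eIF4A helicase, had 409, 431 and 716 CPM in lung, 290, 142 and 136 CPM in blood and 286, 230 and 266 CPM in bone marrow. All lung libraries were above all others, and blood replicate 1 lay with the bone marrow libraries. The log2 fold change in lung against blood was 1.45 ± 0.34 (adjusted p = 0.0125). It passed in 16 of 20 alternatives (adjusted p = 0.000195 to 0.0823), and it missed the threshold without blood replicate 2 (0.0714), without blood replicate 3 (0.0823), without the libraries numbered 3 (0.93, adjusted p = 0.0541) and in the RSEM counts (0.0557). In lung against bone marrow it was 0.99 ± 0.33 (adjusted p = 0.0435), which fell to 0.65 without lung replicate 3 (adjusted p = 0.116). That comparison passed in 9 of 19 alternatives (adjusted p = 0.00696 to 0.154) and failed without lung replicate 2 (0.0626), blood replicate 2 (0.0565), blood replicate 3 (0.056) or any bone marrow library (0.0972 to 0.154).

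Eif4a2, the close paralog of Eif4a1, did not share this pattern. Eif4a2 had 245.1, 234 and 267 CPM in lung, 281, 178 and 187 CPM in blood and 358, 358 and 387 CPM in bone marrow, highest in bone marrow without overlap. It was lower in blood than in bone marrow, by a log2 fold change of -0.77 ± 0.20 (adjusted p = 0.0227), and this call was lost without blood replicate 2 (0.243), blood replicate 3 (0.191) or any bone marrow library (0.0604 to 0.0853), and it passed in 10 of 19 alternatives (0.0061 to 0.243). In lung against bone marrow it was lower by -0.56 ± 0.20 (adjusted p = 0.0476), a call that held in 4 of 19 alternatives (0.0321 to 0.27) and, of the fits without 1 library, only without lung replicate 3. The FPKM ratio of Eif4a1 to Eif4a2 was 2.47, 2.82 and 4.06 in lung, 1.54, 1.20 and 1.08 in blood and 1.16, 0.938 and 1.01 in bone marrow. Lung stood above both other tissues in this ratio, and blood and bone marrow overlapped. Of the 50-base stretches of the 2 genes' transcripts, 0 were shared, so counts of the pair were not exchangeable at that length.

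Of the scaffold genes, Eif4g2 was lower in blood than in bone marrow, and Eif4g1 did not pass. Eif4g2 (chr7:111067985-111083030), the scaffold relative also called DAP5 that lacks the eIF4E-binding part and starts at GTG, had 316, 391 and 542 CPM in lung, 311, 262 and 282 CPM in blood and 696, 584 and 585 CPM in bone marrow. Each tissue was separate, with bone marrow highest and blood lowest. Blood was lower than bone marrow by -1.13 ± 0.22 (adjusted p = 0.00738), which failed without blood replicate 1 (0.0892), 2 (0.13) or 3 (0.0922), in a range of 0.000499 to 0.13 over 19 alternatives. Lung did not pass against either tissue, at 0.55 ± 0.22 over blood (adjusted p = 0.0931, 0.0413 without lung replicate 1, in a range of 0.0217 to 0.346) and -0.58 ± 0.22 over bone marrow (adjusted p = 0.0634). Without lung replicate 3 the second was -0.85 (adjusted p = 0.00472, in a range of 0.00472 to 0.269). Of the summed Eif4g1, Eif4g2 and Eif4g3 FPKM, Eif4g2 took 49.1%, 50.5% and 54.8% in lung, 43.1%, 36.2% and 37.5% in blood and 63.3%, 58.6% and 60.1% in bone marrow. Eif4g1, the canonical scaffold, had 96.9 to 103 CPM in lung, 96.0 to 125 CPM in blood and 74.9 to 85.3 CPM in bone marrow, and its 0.30 ± 0.13 in lung and 0.42 ± 0.14 in blood over bone marrow did not pass (adjusted p = 0.105 and 0.055). The second passed with the replicate block (adjusted p = 0.0268, in a range of 0.0091 to 0.237). Eif4b, a cofactor that stimulates the helicase, had 97.5, 96.1 and 68.95 CPM in lung, 111, 122 and 119 CPM in blood and 120, 139 and 128 CPM in bone marrow. It was lower in lung than in bone marrow by -0.56 ± 0.16 (adjusted p = 0.022), which was lost under upper-quartile scaling (0.312) and without blood replicate 1 (0.0602), blood replicate 2 (0.0639) or bone marrow replicate 2 (0.0738), among others, and it passed in 11 of 19 alternatives (0.00595 to 0.332).

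**Figure D3:**
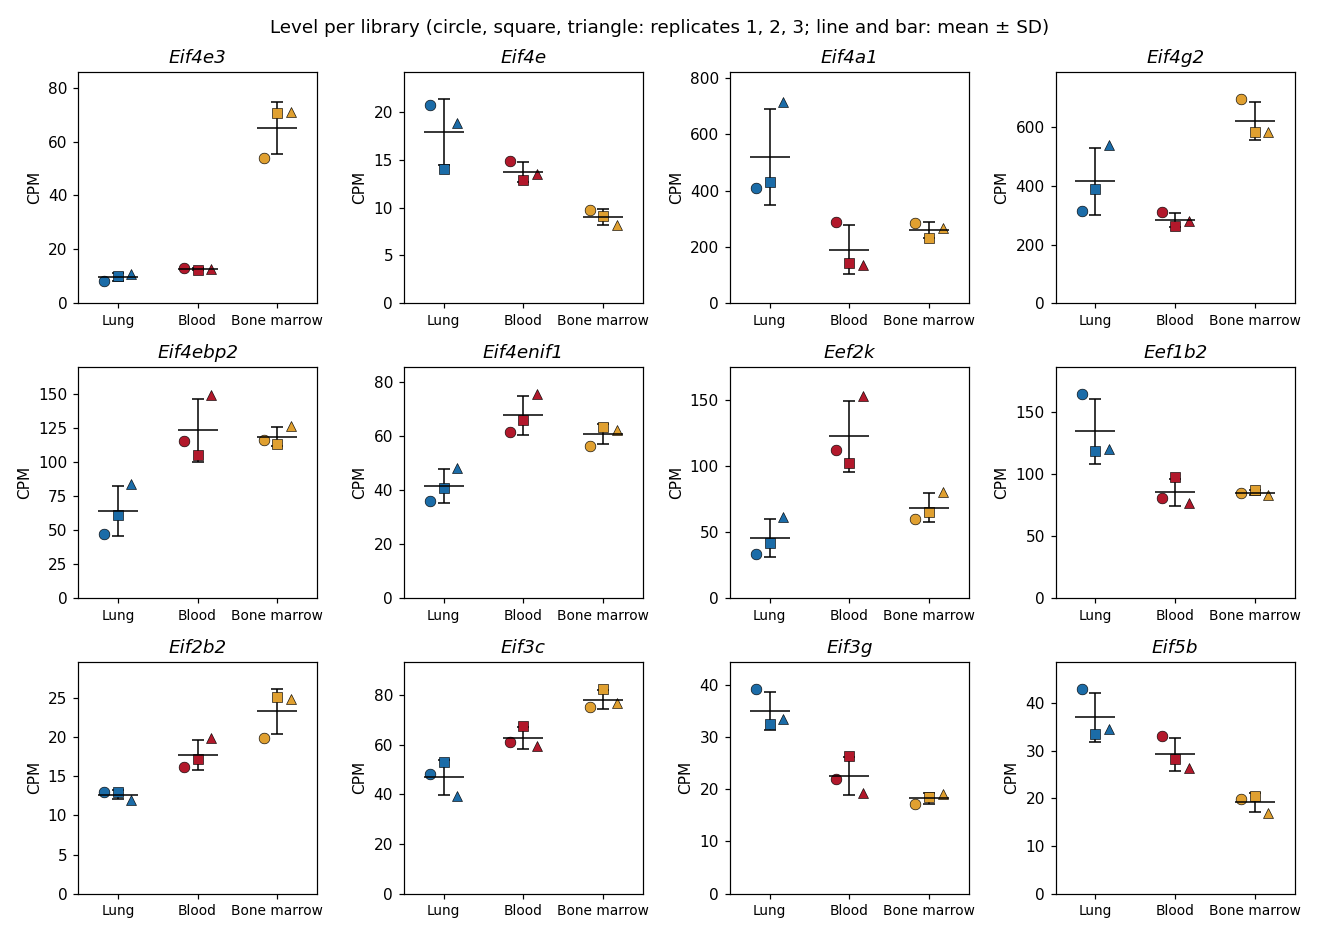
CPM of 12 members in each library, with lung, blood and bone marrow from left to right, replicates 1, 2 and 3 as circle, square and triangle, and mean ± SD as line and bar. Eif4e3 shows bone marrow libraries at 54.1 to 70.9 CPM and all others below 14 CPM, and Eef2k shows blood above 100 CPM and the other tissues below 81 CPM.

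Of the genes whose proteins hold eIF4E, Eif4ebp2 and Eif4enif1 were lower in lung than in blood and bone marrow. Eif4ebp2 (chr10:61432497-61452669), a 4E-BP that blocks eIF4E from meeting eIF4G, had 47.2, 61.1 and 84.3 CPM in lung, 116, 105 and 149 CPM in blood and 116, 114 and 127 CPM in bone marrow. Every lung library was below all blood and bone marrow libraries, which overlapped each other. It was lower in lung than in blood by -0.94 ± 0.22 (adjusted p = 0.0129), and it missed the threshold under DESeq2's size factors (0.0568) and without blood replicate 1 (0.0717), 2 (0.0536) or 3 (0.141), in a range of 0.000212 to 0.141. The difference from bone marrow was -0.89 ± 0.22 (adjusted p = 0.0129), which failed without blood replicate 1 (0.0829), 2 (0.0725) or 3 (0.0576), under DESeq2's size factors (0.0685), without a filter (0.0699) and with only the 6 libraries (0.0574), in a range of 0.00113 to 0.0829. The deposited reads of Eif4ebp2 were 0.847 times its RSEM counts, where 56 of 61 members lay between 1.5 and 2.5, and RSEM counts gave -0.93 in lung against blood (adjusted p = 0.0287).

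Eif4ebp1, the best known 4E-BP, had 50.5, 53.7 and 84.9 CPM in lung, 93.3, 81.9 and 124 CPM in blood and 80.5, 89.8 and 129 CPM in bone marrow. Lung replicate 3 lay inside the range of the other tissues. The log2 fold changes of -0.66 ± 0.27 in lung against blood (adjusted p = 0.0935) and -0.66 ± 0.27 in lung against bone marrow (adjusted p = 0.0785) did not pass, and with the replicate block they did (adjusted p = 0.00388 and 0.00268, in ranges of 0.00231 to 0.455 and 0.00268 to 0.262). Without lung replicate 3 they were -0.97 (adjusted p = 0.0179) and -0.98 (adjusted p = 0.0148). Eif4enif1, the 4E-T protein that carries eIF4E into the nucleus and to P-bodies, had 35.8, 40.7 and 48.0 CPM in lung, 61.5, 65.8 and 75.7 CPM in blood and 56.5, 63.5 and 62.4 CPM in bone marrow. Lung was lowest without overlap. It was lower than blood by -0.70 ± 0.14 (adjusted p = 0.00727), a call lost without blood replicate 1 (0.0515), 2 (0.0639) or 3 (0.115) and under DESeq2's size factors (0.052), in a range of 0.00142 to 0.115. Against bone marrow, lung was lower by -0.55 ± 0.14 (adjusted p = 0.0157), a call that passed in 6 of 19 alternatives (0.00369 to 0.143) and, of the fits without 1 library, only without lung replicate 3 or bone marrow replicate 1.

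Eif4ebp3, the third 4E-BP, went the other way. It had 21.1, 16.8 and 19.6 CPM in lung, 17.6, 16.6 and 19.6 CPM in blood and 10.5, 10.3 and 12.1 CPM in bone marrow, with bone marrow lowest without overlap. It was higher than in bone marrow by 0.80 ± 0.15 in lung (adjusted p = 0.0028) and by 0.71 ± 0.15 in blood (adjusted p = 0.00962), the second lost only without bone marrow replicate 2 (0.061, in a range of 0.00115 to 0.061). This gene is uncertain, because 67.3% of its exonic bases belong also to another protein-coding gene on the same strand and its deposited reads were 9.69 times its RSEM counts. Summed over the 3 4E-BPs, FPKM stood at 23.1, 36.9 and 40.0 times that of Eif4e in lung, 59.0, 60.8 and 83.5 times in blood and 80.2, 89.7 and 130 times in bone marrow, without overlap of lung with the others. Over the summed Eif4e, Eif4e2 and Eif4e3 the same sum was 4.48, 4.78 and 5.71 times in lung, 6.75, 6.24 and 8.66 times in blood and 4.17, 3.66 and 4.56 times in bone marrow, where lung and bone marrow overlapped. This 4E-BP sum includes the uncertain Eif4ebp3. That gene made up 11.3% to 19.1% of it in lung, 7.49% to 9.18% in blood and 4.94% to 5.86% in bone marrow.

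**Figure D4:**
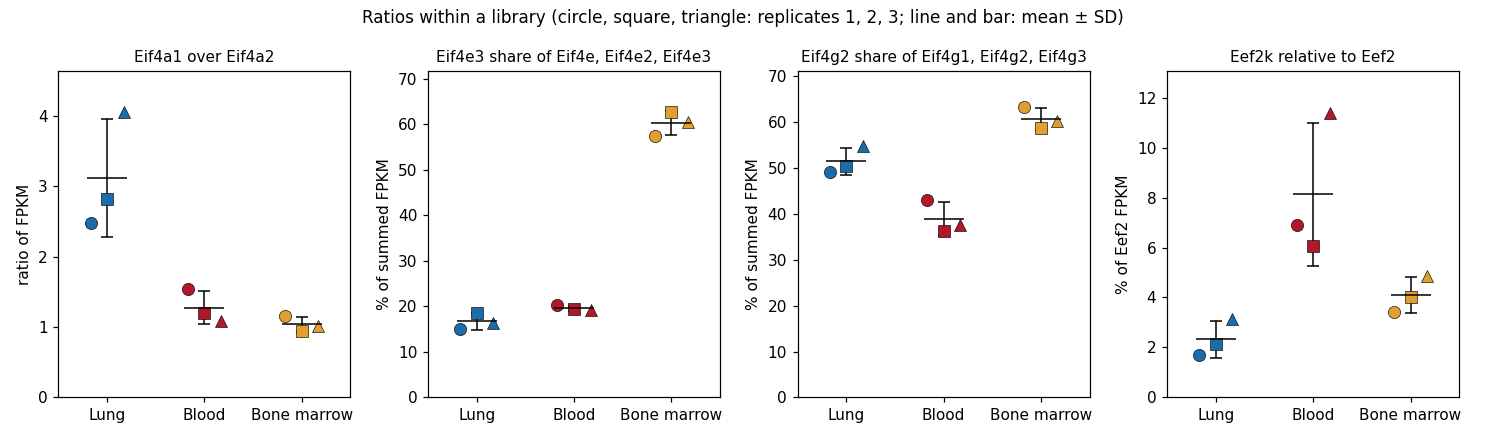
Ratios of FPKM within each library for lung, blood and bone marrow, with replicates as circle, square and triangle and mean ± SD as line and bar. The Eif4a1 to Eif4a2 ratio is 2.47 to 4.06 in lung and at most 1.54 elsewhere, the Eif4e3 share is 57.4% to 62.7% in bone marrow and at most 20.2% elsewhere, Eif4g2 is lowest in blood and Eef2k relative to Eef2 is highest in blood.

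Among 7 genes of start site selection and scanning, Eif1ax was higher in lung than in blood and Eif5b was higher in lung and in blood than in bone marrow. Eif5b, the GTPase that joins the ribosomal subunits, had 42.9, 33.5 and 34.6 CPM in lung, 33.2, 28.2 and 26.5 CPM in blood and 19.95, 20.6 and 16.9 CPM in bone marrow. The 3 tissues did not overlap, in the order lung, blood, bone marrow. Lung was higher than bone marrow by 0.95 ± 0.15 (adjusted p = 0.00137), kept in all 19 alternatives. Blood was higher than bone marrow by 0.61 ± 0.15 (adjusted p = 0.0204), lost without blood replicate 1 (0.0748), blood replicate 2 (0.0502) or any bone marrow library (0.0547 to 0.0839), in a range of 0.00167 to 0.0839. Of its exonic bases, 16.8% lie opposite another gene on the other strand.

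Eif1ax, the X-linked eIF1A gene, had 10.9, 11.3 and 13.3 CPM in lung, 7.91, 8.66 and 8.95 CPM in blood and 9.80, 9.53 and 10.9 CPM in bone marrow. Its 0.48 ± 0.16 in lung over blood (adjusted p = 0.0493) was lost without any 1 of the 9 libraries (0.0676 to 0.246) and passed in 4 of 20 alternatives (0.0116 to 0.246). Eif1, which rejects poor start contexts, had 1075, 912 and 1397 CPM in lung, 955, 612 and 697 CPM in blood and 1020, 870 and 1121 CPM in bone marrow. Its lung and blood libraries overlapped, and 0.58 ± 0.25 in lung over blood did not pass (adjusted p = 0.111), though it did with the replicate block (0.0431, in a range of 0.0284 to 0.387), upper-quartile scaling and DESeq2. Eif5, the GTPase activator that triggers GTP hydrolysis by eIF2, had 367, 407 and 594 CPM in lung, 621, 305 and 318 CPM in blood and 761, 633 and 689 CPM in bone marrow. Blood replicate 1 was the highest peripheral library for Eif5, and neither -0.61 ± 0.31 in lung nor -0.74 ± 0.31 in blood over bone marrow passed (adjusted p = 0.151 and 0.122). Without lung replicate 3, Eif5 was lower in lung than in bone marrow (adjusted p = 0.0466, in a range of 0.0466 to 0.401). The same blood library was high for Eif4a1, at 290 CPM beside 142 and 136 CPM, and for Eif1, at 955 CPM beside 612 and 697 CPM.

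None of the 4 eIF2 subunit genes passed in any comparison, and Eif2s3y in lung against blood was the only case with an unadjusted p under 0.05. Genes of the exchange factor and a relative of eIF2 did pass. Eif2s1, the alpha subunit that eIF2 kinases phosphorylate, had 9.73, 10.9 and 4.54 CPM in lung, 7.17, 8.34 and 4.96 CPM in blood and 7.20, 6.47 and 5.22 CPM in bone marrow, lowest in replicate 3 of each tissue. Eif2b2, the beta subunit of the exchange factor eIF2B that recharges eIF2 with GTP, had 13.1, 12.97 and 12.04 CPM in lung, 16.2, 17.2 and 19.9 CPM in blood and 19.98, 25.1 and 24.9 CPM in bone marrow. The tissues did not overlap, in the order bone marrow, blood, lung from high to low. Lung was lower than bone marrow by -0.88 ± 0.14 (adjusted p = 0.00162), kept in all 19 alternatives. The difference from blood was -0.49 ± 0.14 (adjusted p = 0.0329), which passed in 7 of 20 alternatives (0.0309 to 0.162) and failed without lung replicate 1 (0.0703) or 2 (0.0703), any blood library (0.0623 to 0.162) or bone marrow replicate 2 (0.0559).

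Eif2b5, the catalytic eIF2B subunit, had 11.7, 10.1 and 6.70 CPM in lung, 12.6, 16.8 and 13.48 CPM in blood and 14.3, 15.7 and 14.9 CPM in bone marrow, and lung was below both other tissues without overlap. It was lower in lung than in bone marrow by -0.65 ± 0.22 (adjusted p = 0.041), lost without lung replicate 2 (0.0757) or any bone marrow library (0.0621 to 0.0987) and under upper-quartile scaling (0.336), among others, and it passed in 10 of 19 alternatives (0.0287 to 0.353). Its -0.59 ± 0.22 in lung against blood did not pass (adjusted p = 0.0725), though it did without lung replicate 1 (0.0489) or blood replicate 1 (0.0467), in a range of 0.0467 to 0.371. Eif2d, which delivers tRNA to ribosomes without eIF2, had 8.03, 8.35 and 5.59 CPM in lung, 9.83, 9.19 and 8.22 CPM in blood and 9.80, 12.2 and 10.9 CPM in bone marrow. Its -0.58 ± 0.20 in lung against bone marrow (adjusted p = 0.0476) was lost without any 1 of the 9 libraries (0.0535 to 0.139, in a range of 0.0316 to 0.394), and its deposited reads were 0.629 times its RSEM counts. The third eIF2B call in lung against bone marrow, Eif2b3 at 0.92 ± 0.32 (adjusted p = 0.0498), came from 3.34, 3.99 and 3.18 CPM in lung and 2.17, 1.45 and 1.94 CPM in bone marrow and is named only to complete the count, chosen after its values were seen. It was not followed under the alternatives. The eIF2B genes therefore gave 1 higher and 2 lower of 5 in that comparison. That is 60.0% of them, where 38.2% of all tested genes passed, 15.6% higher and 22.6% lower, and it rests on only 5 genes.

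Genes of eIF3, the large scaffold on the small ribosomal subunit, passed the test no more often than all tested genes. Of 14 tested eIF3 genes, 2 were higher and 1 lower in lung than in blood, 3 higher and 1 lower in lung than in bone marrow, and 0 higher and 1 lower in blood than in bone marrow. These are 21.4%, 28.6% and 7.14% of them, where 28.9%, 38.2% and 21.4% of all tested genes passed. In blood against bone marrow, 2 were higher at an unadjusted p under 0.05, and the DESeq2 count was 0. Eif3g, an RNA-binding subunit, had 39.2, 32.4 and 33.4 CPM in lung, 21.9, 26.4 and 19.3 CPM in blood and 17.1, 18.6 and 19.0 CPM in bone marrow. The 3 tissues did not overlap and lung was highest. Lung was higher than bone marrow by 0.94 ± 0.15 (adjusted p = 0.00125), kept in all 19 alternatives, and higher than blood by 0.64 ± 0.15 (adjusted p = 0.0121), lost without blood replicate 1 (0.0583) or 3 (0.0658) and on log2(FPKM + 1) (0.127), in a range of 9.1e-05 to 0.127.

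Eif3c, a core subunit, ran in the opposite direction, with 48.4, 53.1 and 39.4 CPM in lung, 61.4, 67.7 and 59.4 CPM in blood and 75.4, 82.8 and 76.8 CPM in bone marrow. Again the tissues did not overlap. Lung was lower than bone marrow by -0.74 ± 0.14 (adjusted p = 0.00314), which held in all 9 fits without 1 library and was lost under upper-quartile scaling (0.069) and on log2(FPKM + 1) (0.14), in a range of 2.31e-06 to 0.14. Lung was lower than blood by -0.42 ± 0.14 (adjusted p = 0.0474), which passed in 4 of 20 alternatives (0.0193 to 0.277) and, of the fits without 1 library, only without lung replicate 2. Eif3a, the largest subunit, had 131, 124 and 167 CPM in lung, 122, 127 and 122 CPM in blood and 104, 99.2 and 85.2 CPM in bone marrow. It was higher in lung than in bone marrow by 0.55 ± 0.15 (adjusted p = 0.0198), lost without any 1 blood library (0.0641 to 0.0736) or bone marrow library (0.055 to 0.101), and it passed in 10 of 19 alternatives (0.00178 to 0.101). Without the libraries numbered 3 the difference was 0.30 (adjusted p = 0.0776). Blood over bone marrow, at 0.36 ± 0.15 (adjusted p = 0.125), passed without lung replicate 3 (0.0401, in a range of 0.0102 to 0.399).

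Eif3k, a peripheral subunit, had 65.0, 49.8 and 49.3 CPM in lung, 47.2, 41.8 and 42.7 CPM in blood and 56.3, 58.9 and 65.3 CPM in bone marrow. It was lower in blood than in bone marrow by -0.45 ± 0.14 (adjusted p = 0.049), which held in 5 of 19 alternatives (0.0235 to 0.832) and, of the fits without 1 library, only without lung replicate 1 or 3. Eif3j2, which encodes the loosely bound subunit and which the deposited table places at the position of Eif3j1, had 25.9, 28.1 and 34.7 CPM in lung, 19.8, 14.9 and 12.5 CPM in blood and 12.3, 10.8 and 9.95 CPM in bone marrow. It was higher in lung than in bone marrow by 1.42 ± 0.20 (adjusted p = 0.000701) and than in blood by 0.91 ± 0.20 (adjusted p = 0.00947), the second lost without blood replicate 2 (0.0637) or 3 (0.0738) and in the RSEM counts (0.0531), in a range of 0.000473 to 0.0738. The pair is uncertain, since 90.8% of the 50-base stretches of Eif3j2 transcripts are also in Eif3j1 and the RSEM counts put 3590 reads on Eif3j1 and 1045 on Eif3j2 in lung and blood. Summed to 1 gene, the pair was higher in lung by 1.32 over bone marrow (adjusted p = 0.000475) and by 0.77 over blood (adjusted p = 0.0102). Eif3d, Eif3f, Eif3h, Eif3l and Eif3m lay within 0.32 log2 units of 0 in every comparison, and none of them passed. Of the exonic bases of Eif3d, 43.3% lie opposite an antisense gene.

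Of the genes that act around the large subunit and in elongation, Eif6 was lower in lung than in bone marrow. Eif6, which keeps the large subunit from joining early, had 21.9, 20.9 and 24.9 CPM in lung, 27.2, 24.4 and 28.3 CPM in blood and 29.97, 31.7 and 36.5 CPM in bone marrow. Lung and bone marrow did not overlap. The difference was -0.54 ± 0.13 (adjusted p = 0.0118), lost without any 1 blood library (0.0801 to 0.104) and under upper-quartile scaling (0.1), and it passed in 10 of 19 alternatives (0.00493 to 0.106). Eif5a had 268, 250 and 271 CPM in lung, 211, 181 and 209 CPM in blood and 232, 210 and 265 CPM in bone marrow. Its 0.39 ± 0.15 in lung over blood did not pass (adjusted p = 0.0794) and passed with the replicate block (0.0283, in a range of 0.00823 to 0.406), upper-quartile scaling and DESeq2.

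All 7 genes grouped by symbol as elongation had a positive log2 fold change in lung against blood and in lung against bone marrow. The medians were 0.59 and 0.66, and 2 of 7 passed the test in each. That is 28.6% of them, where 28.9% and 38.2% of all tested genes passed. Eef1a2, 1 of the 7, had 48 reads over the 9 libraries, so its sign rests on few reads. DESeq2 called 4 and 5 of the 7 higher in these comparisons, and 18.3% and 23.3% of all tested genes. In blood against bone marrow the median was 0.00 and 0 of 7 passed in either direction, with 1 higher and 0 lower at an unadjusted p under 0.05 and 0 called by DESeq2. Eef1b2, an exchange factor that recharges eEF1A, had 165, 119 and 120 CPM in lung, 81.3, 97.6 and 77.2 CPM in blood and 84.8, 87.3 and 83.6 CPM in bone marrow. Every lung library was above all others. It was higher in lung by 0.66 ± 0.16 over blood (adjusted p = 0.0166), lost without blood replicate 1 (0.0904) or 3 (0.09) and in 4 of 20 alternatives in all (5.33e-05 to 0.161), and by 0.66 ± 0.16 over bone marrow (adjusted p = 0.0128), lost without bone marrow replicate 1 (0.0516) or 2 (0.0559), in a range of 1.47e-05 to 0.0559. Eef1d, the other exchange subunit, had 44.7, 38.0 and 27.9 CPM in lung, 24.1, 25.7 and 23.8 CPM in blood and 19.5, 20.1 and 14.9 CPM in bone marrow. Lung was higher than bone marrow by 1.02 ± 0.19 (adjusted p = 0.003), kept in all 19 alternatives. Its 0.59 ± 0.19 over blood (adjusted p = 0.0433) passed in 8 of 20 alternatives (0.0024 to 0.303) and, of the fits without 1 library, only without lung replicate 3 or bone marrow replicate 3.

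Eef1a1 had 1777, 1740 and 1529 CPM in lung, 1263, 1372 and 849 CPM in blood and 1347, 1196 and 1074 CPM in bone marrow. Lung was above both other tissues in every library, yet 0.53 ± 0.23 over blood and 0.48 ± 0.23 over bone marrow did not pass (adjusted p = 0.112 and 0.125). With the replicate block both did (adjusted p = 0.0298 and 0.0398, in ranges of 0.00487 to 0.411 and 0.00544 to 0.334 over the alternatives), as they did by DESeq2. Eef2 had 958, 964 and 959 CPM in lung, 795, 826 and 657 CPM in blood and 859, 798 and 816 CPM in bone marrow, and its 0.34 ± 0.17 over blood and 0.22 ± 0.17 over bone marrow did not pass (adjusted p = 0.166 and 0.325). They passed in 2 of 20 alternatives (0.00304 to 0.534) and 2 of 19 alternatives (0.0154 to 0.612), upper-quartile scaling and DESeq2. Eef1g, a structural partner of the exchange factors, had 122, 97.2 and 57.03 CPM in lung, 64.7, 80.1 and 55.2 CPM in blood and 68.1, 61.5 and 55.5 CPM in bone marrow, and lung replicate 3 lay inside the other tissues' range. With all 9 libraries Eef1g did not pass in lung against blood or against bone marrow. It passed in 2 of 20 and 5 of 19 alternatives, with log2 fold changes of 0.21 to 0.69 and 0.32 to 0.91. Among these, without lung replicate 3, Eef1g was higher in lung, by 0.69 over blood (adjusted p = 0.0185, in a range of 0.0185 to 0.64) and 0.79 over bone marrow (adjusted p = 0.00853, in a range of 0.00853 to 0.367).

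Eef2k (chr7:120842831-120907219), the calcium-dependent kinase that switches off eEF2, was highest in blood. It had 33.4, 42.2 and 61.3 CPM in lung, 112, 102 and 153 CPM in blood and 60.0, 65.3 and 80.9 CPM in bone marrow. Blood stood above both other tissues without overlap, and lung replicate 3 lay inside the bone marrow range. Lung was lower than blood by -1.43 ± 0.25 (adjusted p = 0.00387), kept in all 20 alternatives. Blood was higher than bone marrow by 0.83 ± 0.25 (adjusted p = 0.0422), which passed in 10 of 19 alternatives (0.000618 to 0.2) and, of the fits without 1 library, only without lung replicate 1 or 3. The -0.59 ± 0.25 in lung against bone marrow did not pass (adjusted p = 0.0894) and passed with the replicate block (0.00723) and without lung replicate 3, at -0.90 (0.0129), in a range of 0.00572 to 0.293. Relative to its substrate in the same library, Eef2k stood at 1.70%, 2.14% and 3.14% of the Eef2 FPKM in lung, 6.91%, 6.07% and 11.4% in blood and 3.43%, 4.01% and 4.87% in bone marrow, with no overlap between tissues. The methyltransferase genes Eef1akmt1, Eef1akmt2 and Eef2kmt stayed at or below 3.11 CPM in every library and did not pass.

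Without the 3 libraries numbered 3, in which summed B cell markers were lowest in each tissue, 5 members were higher and 4 lower in lung than in blood, 15 higher and 12 lower in lung than in bone marrow, and 5 higher and 2 lower in blood than in bone marrow, beside 22.0% and 19.7%, 28.1% and 25.5%, and 11.9% and 15.2% of all tested genes. Eif4e3 was then lower by -2.79 in lung and -2.28 in blood against bone marrow. Eif3g was higher by 0.98 in lung over bone marrow, and Eef2k was lower by -1.54 in lung against blood. All were still past the threshold. This fit keeps the lung libraries with the higher sums of other cells' markers, so it does not test the part of those cells.

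Other genes of translation were taken from lists chosen with earlier results of these data known, with examples by size. Their edgeR shares are to be read beside the 28.9%, 38.2% and 21.4% of all tested genes called by edgeR. These are for lung against blood, lung against bone marrow and blood against bone marrow. In that order, DESeq2 called 18.3% higher and 13.6% lower, 23.3% and 19.3%, and 11.8% and 14.8% of all tested genes. The DESeq2 counts of the lists are to be read beside these. Among 9 genes that phosphorylate eIF2, reverse this or respond to it, 2 were higher and 2 lower in lung than in blood, 2 higher and 3 lower in lung than in bone marrow, and 2 higher and 2 lower in blood than in bone marrow, 44.4%, 55.6% and 44.4% of the list. DESeq2 called 2 higher and 3 lower, 3 and 3, and 4 and 3. Eif2ak3, the PERK kinase of the endoplasmic reticulum, had 46.6, 49.6 and 50.6 CPM in lung, 220, 186 and 224 CPM in blood and 132, 144 and 145 CPM in bone marrow. The tissues did not overlap and lung was lowest, by -2.10 ± 0.13 against blood (adjusted p = 0.000129) and -1.52 ± 0.13 against bone marrow (adjusted p = 6.15e-05), both kept without any 1 library. Ppp1r15a, the inducible phosphatase subunit GADD34, was higher in lung than in bone marrow by 2.01 ± 0.32 (adjusted p = 0.00133), and its 1.03 ± 0.31 over blood (adjusted p = 0.0347) held, of the fits without 1 library, only without blood replicate 1 (0.0513 to 0.174 in the others) and passed in 8 of 20 alternatives (0.00255 to 0.174). Eif2ak4, the amino acid sensing kinase GCN2, was higher than in bone marrow by 1.67 ± 0.43 in lung (adjusted p = 0.0152, 0.0581 without lung replicate 2, in a range of 0.000225 to 0.0581). Impact, a GCN2 inhibitor, was higher in lung than in blood by 2.91 ± 0.58 (adjusted p = 0.00685), and blood replicate 1 stood at 86.6 CPM beside 25.03 and 21.2 CPM in the other blood libraries.

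In the list of 18 mTOR and MNK signalling genes, 1 was higher and 5 lower in lung than in blood, 3 higher and 5 lower in lung than in bone marrow, and 1 higher and 3 lower in blood than in bone marrow, 33.3%, 44.4% and 22.2% of the list. DESeq2 called 2 higher and 3 lower, 5 and 5, and 2 and 3. Rheb, the GTPase that activates mTOR complex 1, had 64.0, 65.1 and 118 CPM in lung, 21.4, 18.9 and 22.4 CPM in blood and 31.8, 27.7 and 30.6 CPM in bone marrow. Lung was highest without overlap, by 1.98 ± 0.24 over blood (adjusted p = 0.000724) and 1.45 ± 0.23 over bone marrow (adjusted p = 0.00138). Rps6ka1, the RSK1 kinase that phosphorylates eIF4B and ribosomal protein S6, had 55.6, 71.1 and 71.6 CPM in lung, 200, 176 and 251 CPM in blood and 458, 515 and 610 CPM in bone marrow. It was lower in lung by -1.66 ± 0.20 against blood (adjusted p = 0.000776) and -3.00 ± 0.21 against bone marrow (adjusted p = 2.83e-05), and lower in blood by -1.34 ± 0.20 against bone marrow (adjusted p = 0.00198). Mlst8, an mTOR complex subunit, was lower than in bone marrow by -2.68 ± 0.48 in lung (adjusted p = 0.00249) and -2.64 ± 0.48 in blood (adjusted p = 0.00519). These calls of Rheb, Rps6ka1 and Mlst8 were kept without any 1 library. Mknk1, which phosphorylates eIF4E, was lower in lung than in blood by -1.11 ± 0.27 (adjusted p = 0.0154), lost without blood replicate 1 (0.0668), 2 (0.0597) or 3 (0.134) and passed in 16 of 20 alternatives (0.000467 to 0.134).

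Of 20 tested initiation cofactors, 2 were higher and 5 lower in lung than in blood, 3 higher and 6 lower in lung than in bone marrow, and 1 higher and 5 lower in blood than in bone marrow, 35%, 45% and 30% of the list. DESeq2 called 3 higher and 4 lower, 4 and 5, and 2 and 5. Larp4, which binds poly(A) tails, had 13.2, 16.2 and 11.9 CPM in lung, 26.8, 28.0 and 21.9 CPM in blood and 41.4, 43.4 and 42.6 CPM in bone marrow, a separate order of the 3 tissues. Lung was lower by -0.90 ± 0.15 against blood (adjusted p = 0.00319) and -1.63 ± 0.15 against bone marrow (adjusted p = 8.92e-05). Ncbp1, the large nuclear cap-binding subunit, was lower than in bone marrow by -1.43 ± 0.12 in lung (adjusted p = 4.45e-05) and -1.24 ± 0.11 in blood (adjusted p = 0.000165). Larp1, the oligopyrimidine tract binder, was higher in blood than in bone marrow by 0.96 ± 0.24 (adjusted p = 0.0207), lost without blood replicate 2 (0.0584), bone marrow replicate 2 (0.067) or bone marrow replicate 3 (0.0661), in a range of 0.000572 to 0.067.

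In the 10 termination, recycling and rescue genes, 1 was higher and 4 lower in lung than in blood, 0 higher and 4 lower in lung than in bone marrow (also 0 higher at an unadjusted p under 0.05 and by DESeq2), and 1 higher and 1 lower in blood than in bone marrow, 50%, 40% and 20% of the list. DESeq2 called 1 higher and 2 lower, 0 and 3, and 4 and 1. Nemf and Ltn1, which clear stalled large subunits and tag their nascent chains, were lower in lung than in blood by -0.96 ± 0.12 (adjusted p = 0.000865) and -0.95 ± 0.14 (adjusted p = 0.00177). Etf1, the release factor that reads stop codons, had 455, 460 and 887 CPM in lung, 323, 91.0 and 70.3 CPM in blood and 373, 289 and 365 CPM in bone marrow. Blood replicate 1 again stood with the other tissues. Its 1.90 ± 0.56 in lung over blood (adjusted p = 0.0316) was lost without lung replicate 1 (0.0509), 2 (0.0508) or 3 (0.0809), blood replicate 2 (0.104) or 3 (0.11) or bone marrow replicate 2 (0.051), and it passed in 11 of 20 alternatives (0.00117 to 0.177). Gtpbp1, a GTPase related to ribosome rescue factors, had 40.2, 47.7 and 49.8 CPM in lung, 63.5, 62.9 and 70.6 CPM in blood and 153, 171 and 183 CPM in bone marrow. It was lower than in bone marrow by -1.88 ± 0.14 in lung (adjusted p = 3.18e-05) and -1.36 ± 0.14 in blood (adjusted p = 0.000246).

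Among 23 cytosolic aminoacyl-tRNA synthetase and scaffold genes, 1 was higher and 1 lower in lung than in blood, 4 higher and 3 lower in lung than in bone marrow, and 0 higher and 2 lower in blood than in bone marrow (1 higher at an unadjusted p under 0.05 and 0 by DESeq2), 8.7%, 30.4% and 8.7% of the list. Eprs, the glutamyl-prolyl enzyme, had 133, 130 and 214 CPM in lung, 12.4, 13.4 and 6.80 CPM in blood and 13.3, 9.31 and 5.37 CPM in bone marrow. Every lung library was far above all others, by 3.87 ± 0.41 over blood (adjusted p = 0.000461) and 4.09 ± 0.41 over bone marrow (adjusted p = 0.000123). Dars, the aspartyl enzyme, had 12.4, 12.9 and 9.86 CPM in lung, 15.8, 14.8 and 13.4 CPM in blood and 76.0, 89.8 and 87.9 CPM in bone marrow. It was lower than in bone marrow by -2.85 ± 0.15 in lung (adjusted p = 9.14e-06) and -2.52 ± 0.15 in blood (adjusted p = 2.68e-05). Of 9 genes that modify eIF5A or eEF2, 0 were higher and 1 lower in lung than in blood (0 of either by DESeq2), Dhps at -0.50 ± 0.16 (adjusted p = 0.0452), which held, of the fits without 1 library, only without lung replicate 3 (0.0619 to 0.166 in the others) and passed in 5 of 20 alternatives (0.0289 to 0.178). In the other 2 comparisons 0 of these 9 passed, with 1 and 0 higher at an unadjusted p under 0.05, 0 lower, and 1 and 0 called by DESeq2. Of 9 mitochondrial translation factors, 0 were higher and 1 lower in lung than in blood, 1 higher and 1 lower in lung than in bone marrow, and 0 passed in blood against bone marrow. The counts of 0 stood beside 1 gene higher in lung than in blood, and 1 higher and 1 lower in blood than in bone marrow, both at an unadjusted p under 0.05 and by DESeq2. Mtif3, an initiation factor of mitochondria, was lower in lung by -1.24 ± 0.23 against blood (adjusted p = 0.00534, and 0.0694 in the RSEM counts, in a range of 1e-06 to 0.0694) and -1.80 ± 0.24 against bone marrow (adjusted p = 0.000491).

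**Figure D5:**
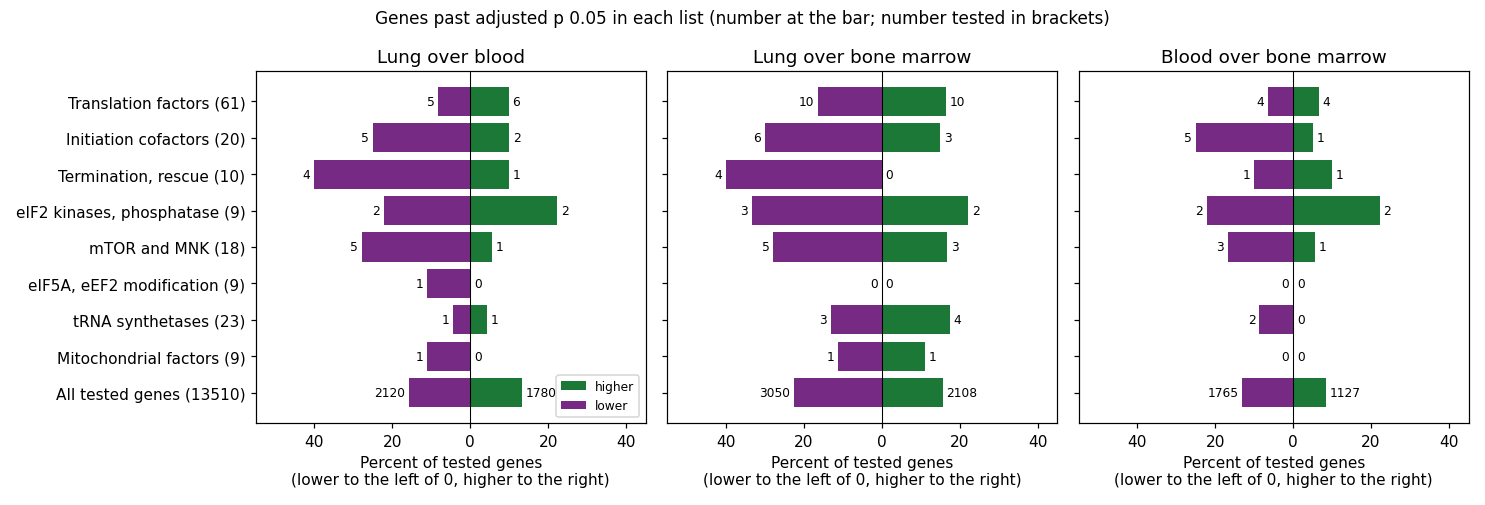
Percent of tested genes past an adjusted p of 0.05 in each list, lower to the left of 0 and higher to the right, with the number of genes at each bar, for lung over blood, lung over bone marrow and blood over bone marrow. The 61 translation factors have shorter bars than all 13510 tested genes together in lung over blood and in blood over bone marrow.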

How the data were processed

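FACS-sorted neutrophils gave polyA RNA, and the labels name the library kit both as TruSeq standard and as TruSeq stranded, so whether counting used strand is unknown. The submitters' processing notes name Bowtie2, STAR, StringTie 2.1.3b, RSEM, DESeq2 and mm10, without roles.

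The deposited series table lists, per the file headers, whole-number read counts and FPKM of 36780 transcripts. FPKM times length over count was constant within each library. Counts and FPKM were summed by gene ID. The authors' files of the lung and blood libraries hold RSEM expected counts, which were rounded and used as an alternative. The series table held 1.87 to 1.90 times as many reads in each of these 6 libraries, a ratio that rescaling between libraries would have spread. No such check was made for bone marrow.

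The 13510 genes passing filterByExpr in edgeR 4.0.16 entered 1 robust quasi-likelihood model of tissue over 9 libraries, with TMM scaling (also in all CPM), two-sided tests and Benjamini-Hochberg adjustment over all tested genes. SE is the absolute log2 fold change over the square root of F. The common coefficient of biological variation was 0.448. R 4.3.3, limma 3.58.1, DESeq2 1.42.0, Python 3.11.15, pandas 2.3.3 and matplotlib 3.10.9 served the rest. Alternatives were other scalings, no filter, no robust estimation, DESeq2, limma, log2(FPKM + 1), RSEM counts, only the 6 libraries compared, a replicate block and leaving out libraries.

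Titles share replicate numbers. Deviations from tissue means in log2(CPM + 1) had correlations of 0.106 to 0.560 over the 9 same-numbered pairs. The rule of over 0.1 for pairing was met only narrowly (lowest 0.0722 with a pseudocount of 5). The 18 differently numbered pairs ran from -0.593 to 0.504, and some exceeded same-numbered ones. Lung replicate 1 had 0.491 with blood replicate 2 and 0.106 with blood replicate 1. The main fit used no pairing. No label names a shared animal or day.

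The members and gene lists were chosen with earlier results of these data known. Named members are those past the threshold with at least 5 CPM in the higher tissue, at most 12 in each direction, plus 19 followed in every comparison. Eif4e2, Eef1a2, Eif5a2, Eif2s3y, the eIF3 genes near 0 and the methyltransferases were named after their values were seen. List examples are among the 3 largest called changes of each list and comparison.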

Additional observations from a re-analysis of the deposited data

How the results depend on the processing

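No named call changed direction in any alternative. Of the calls of named members, 1 of 11 in lung against blood (Eef2k), 9 of 19 in lung against bone marrow and 1 of 8 in blood against bone marrow (Eif4e3) held in all 9 fits without 1 library. Leaving out 1 library gave 0 to 6 members higher and 1 to 7 lower in lung against blood, 6 to 12 and 4 to 14 in lung against bone marrow, and 0 to 8 and 1 to 4 in blood against bone marrow. The counts of 0 came from edgeR without blood replicate 3 (6 members higher at an unadjusted p under 0.05) and without bone marrow replicate 2 (also 6).

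Percentages in brackets below are the shares of all tested genes called in the same direction. For lung against blood, members higher numbered 14 under upper-quartile scaling (16.2%) and DESeq2 (18.3%) and 10 with the replicate block (15.3%). They numbered 3 with only the 6 libraries (10.1%) and on log2(FPKM + 1) (10.3%), and 2 in RSEM counts (10.3%). Members lower numbered 1 with DESeq2's size factors (10.6%) and 9 on log2(FPKM + 1) (21.6%). They numbered 3 under upper-quartile scaling (12.8%), without a filter (8.47%) and with 6 libraries (11.7%). For lung against bone marrow, members higher numbered 23 under upper-quartile scaling (23.0%) and 16 by DESeq2 (23.3%). Members lower numbered 3 with DESeq2's size factors (16.6%), upper-quartile scaling (15.8%) and no filter (11.9%). They numbered 4 with 6 libraries (17.8%) and on log2(FPKM + 1) (16.8%). The replicate block gave 14 higher and 12 lower there, and of the named results it ended no call and changed those given with its value in the text. For blood against bone marrow, members higher numbered 8 under upper-quartile scaling (12.5%), 2 without a filter (5.11%) and 7 with the block (12.1%). They numbered 9 with 6 libraries (17.3%) and 11 on log2(FPKM + 1) (16.7%). Members lower numbered 2 with DESeq2's size factors (10.2%), without a filter (5.95%) and on log2(FPKM + 1) (8.19%). Without the libraries numbered 3, a fit chosen after seeing the data, they also numbered 2 (15.2%). The cause was not tested. With 3 libraries a tissue, a missed call does not show equal levels. Members under 3 CPM rest on few reads.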
